A study of Homo sapiens with 6 samples.

Results

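Heat shock proteins and chaperones were examined in HT1080, an established human fibrosarcoma cell line. The set holds the protein-coding genes that encode HSP70 and HSP110 proteins (HSPA and HSPH1), HSP90 proteins, small heat shock proteins (HSPB), J-domain proteins (DNAJA, DNAJB and DNAJC), the mitochondrial chaperonin HSPD1 and HSPE1, and the cytosolic chaperonin TRiC/CCT. Members were chosen by gene symbol and not by their expression, although earlier results of these data were known. There were 76 such genes among the 62710 gene IDs of the expression table, and the 59 with a mean of at least 1 FPKM over the 6 libraries were compared between groups. FPKM is the number of sequenced fragments assigned to a gene, scaled by the length of the gene and by the fragments of the library. CCT6A, a further subunit gene of TRiC/CCT, falls outside the naming rule and was read only as a neighbour.

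Molecular chaperones bind unfolded or partly folded proteins and keep them from aggregating. HSP70 proteins bind and release short exposed stretches of a client in cycles of ATP hydrolysis, which J-domain proteins start and nucleotide exchange factors such as the HSP110 proteins reset. HSP90 and the ring-shaped chaperonins take over clients for the later steps of folding, and separate members serve the cytosol, the endoplasmic reticulum (ER) and the mitochondria. Part of the family is kept at a high level in growing cells, and another part is switched on by heat shock factor 1 (HSF1) or by the unfolded protein response of the ER.

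The cells were left untreated (3 libraries) or exposed to IFNβ, a type I interferon, at 20 ng/mL for 24 h (3 libraries). Both groups were the same cell line with no genetic change. The labels name human IFNβ, whereas the RNA sequencing methods of the study name mouse IFNβ. The study states in general that its in vitro results came from independent biological replicates, but the labels do not say that the libraries of a group came from separate cultures. If they did not, the p-values measure only the spread between these libraries, which may be technical.

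Between 22848104 and 32915500 fragments per library stood behind the FPKM values, and each of the 59 members compared had between 110 and 138658 fragments in a library. The interferon response was present in all treated libraries, as IFIT1, an antiviral protein that binds foreign RNA, had a mean of 0.916 FPKM in untreated and 413 FPKM in IFNβ-treated cells. VIM, FN1, SPARC and CDH2, markers of mesenchymal cells, were expressed in every library. The mesenchymal markers COL1A1 and THY1 had at most 0.706 and 0.0217 FPKM as a group mean. The epithelial markers EPCAM, CDH1, KRT19 and CLDN4 summed to at most 0.646 FPKM in a library and the endothelial markers PECAM1, CDH5 and VWF to at most 0.441 FPKM. Of the mesenchymal markers tested, 4 were higher and VIM was lower after IFNβ, and their part in the results was not tested. These are bulk libraries, in which fewer cells expressing a gene and less RNA per cell cannot be told apart.

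Of the 59 members compared, 15 were higher and 20 were lower after IFNβ at an adjusted p-value under 0.05 (limma, Benjamini-Hochberg over all 20716 genes tested), and 24 did not pass. The background was broad. Of the 11996 genes with a mean of at least 1 FPKM, 49.4% were called, 21.1% higher and 28.3% lower. The members' shares were 59.3% called, 25.4% higher and 33.9% lower. Of all 20716 genes tested, 32.7% were called. The median log2 fold change was -0.04 over the members compared and -0.03 over all genes with at least 1 FPKM. When a log2 fold change of 1 or more in either direction was also required, 3 members (5.08%) were higher and none was lower. The same condition held higher for 3.01% and lower for 0.458% of the genes with at least 1 FPKM, and for 3.49% and 0.739% of all genes tested. The 3 members include HSPA1A and HSPA1B, near-identical copies between which reads can be split, so they are not independent of each other.

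The rises and the falls differed in size. Of the 15 members that rose, 8 had a log2 fold change between 0.3 and 1 and 3 had one of at least 1, with a median of 0.40. Of the 20 that fell, 18 changed by less than 0.3 on the log2 scale, with a median of -0.18. These size classes were not set beside those of all genes. Among all genes with at least 1 FPKM, 3.01% were higher and 0.458% lower past the fold threshold, so larger rises than falls are not particular to the members. The standard errors of the members compared lay between 0.02 and 0.18, with a median of 0.03 on the log2 scale. In 40 members (67.8%) no library of one group overlapped with the other group, beside 62.7% of the genes with at least 1 FPKM and 46.6% of all genes tested.

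**Figure D1:**
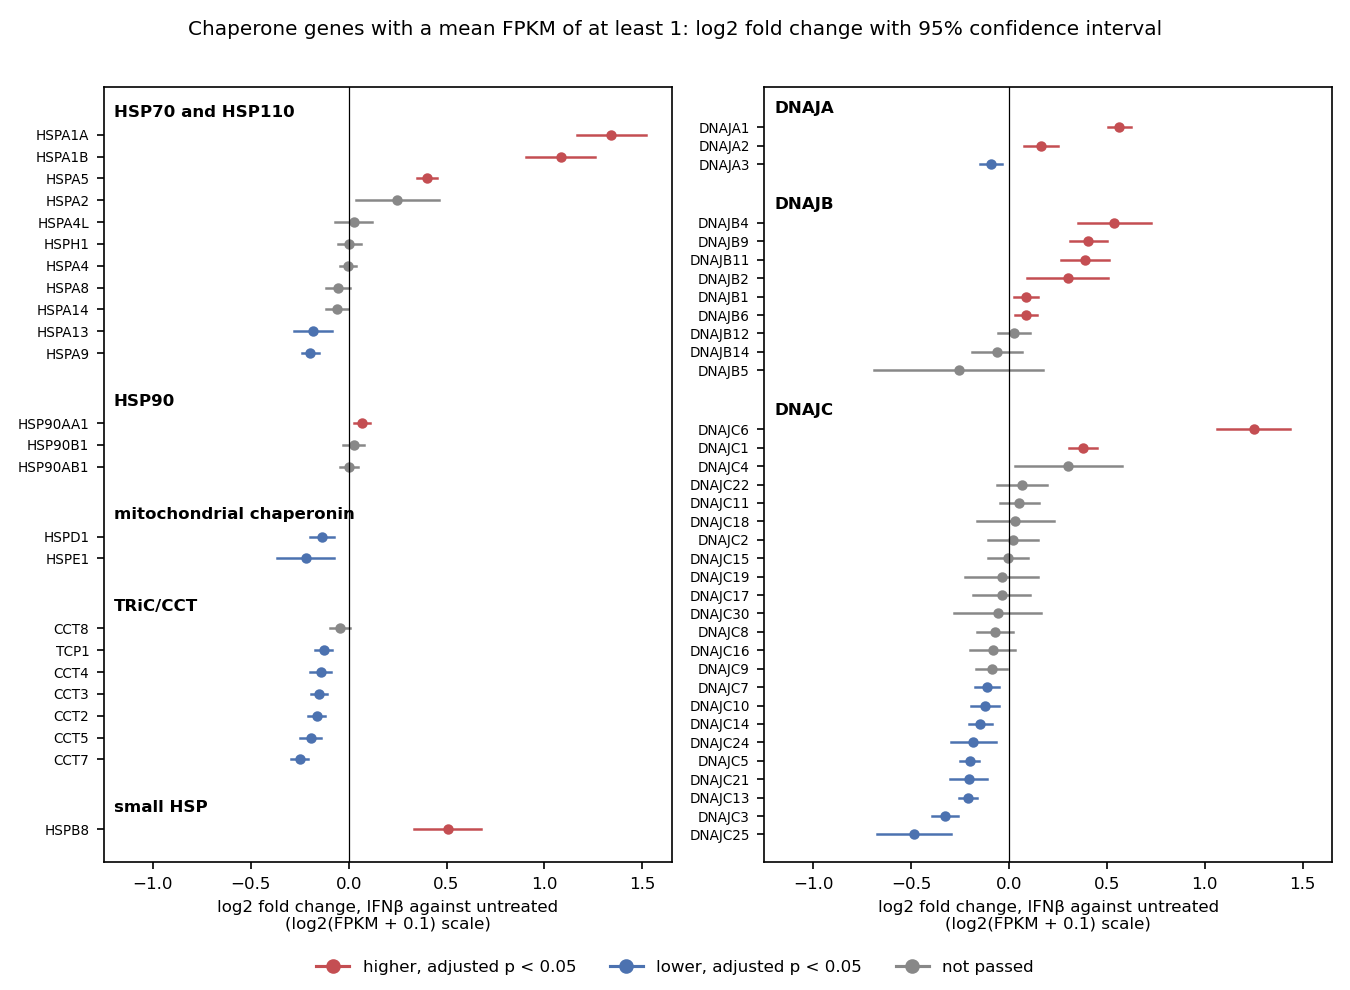
Log2 fold change of each of the 59 chaperone genes compared (IFNβ against untreated, on the log2(FPKM + 0.1) scale, points) with its 95% confidence interval (bars), grouped by family. Red marks the 15 genes called higher, blue the 20 called lower and grey the 24 that did not pass. HSPA1A, HSPA1B and DNAJC6 lie beyond 1, whereas the TRiC/CCT genes, HSPA9, HSPD1 and HSPE1 lie left of 0.

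The share of the members in the transcriptome differed little between the groups. Their summed FPKM was 1.93% ± 0.0431 (S.D., n = 3) of the library's FPKM total in untreated cells and 1.95% ± 0.0107 (n = 3) after IFNβ, with p = 0.5 in an exact two-sided permutation test over the 6 libraries, which cannot give less than 0.1. HSP90AB1, HSPA8 and HSP90AA1 alone made up 53.2% of that sum in untreated and 52.9% in treated cells. The difference in the members' share was 0.0225 percentage points.

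Both stress-inducible HSP70 genes rose past the fold threshold. HSPA1A (ENSG00000204389, chr6:31815464-31817946 in GENCODE release 29 on GRCh38, plus strand) and HSPA1B (ENSG00000204388, chr6:31827735-31830255, plus strand) encode almost the same protein and are the HSP70 genes best known for their response to heat. HSPA1A had 7.34, 8.86 and 8.78 FPKM in untreated and 21.1, 21.2 and 21.2 FPKM in treated libraries. Its log2 fold change was 1.34 with a standard error of 0.07 and a limma adjusted p-value of 4.4e-05. HSPA1B had 11.3, 9.64 and 10.0 FPKM in untreated and 22.6, 23.0 and 20.2 FPKM in treated libraries, a log2 fold change of 1.08 with a standard error of 0.07 and a limma adjusted p-value of 1.06e-04. In both genes every treated library lay far above every untreated library.

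Because the copies are nearly identical, reads can be split between them arbitrarily. HSPA1A took 39.5%, 47.9% and 46.7% of the sum of both in untreated libraries, against 48.3%, 48.0% and 51.2% in treated ones. Their sum does not depend on that split. It was 18.6, 18.5 and 18.8 FPKM in untreated and 43.6, 44.3 and 41.5 FPKM in treated libraries, and its log2 fold change was 1.21 with a limma adjusted p-value of 8.9e-07. By FPKM the pair nevertheless stayed a minor part of cytosolic HSP70. Whether reads that fit both copies were counted is not given in the sources used here. If they were left out, the values of the pair are too low. HSPA8, the constitutive HSP70 (HSC70), had 877, 830 and 869 FPKM in untreated and 825, 830 and 823 FPKM in treated libraries, so the pair's FPKM was 2.17% of that of HSPA8 before and 5.22% after IFNβ.

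The promoters of the pair are shown because they match part of the heat shock element, to which heat shock factors bind. In the RefSeq windows (GRCh38.p14, plus strand), the 250 bases before each start aligned with 235 identical bases, and each held 1 GAANNTTC, an inverted pair of heat shock units, in capitals below.
HSPA1A (chr6:31815293-31815542): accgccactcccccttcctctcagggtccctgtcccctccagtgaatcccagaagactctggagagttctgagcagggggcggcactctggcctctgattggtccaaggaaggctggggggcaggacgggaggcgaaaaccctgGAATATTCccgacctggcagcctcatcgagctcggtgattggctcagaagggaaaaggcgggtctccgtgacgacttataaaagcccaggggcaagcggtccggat
HSPA1B (chr6:31827488-31827737): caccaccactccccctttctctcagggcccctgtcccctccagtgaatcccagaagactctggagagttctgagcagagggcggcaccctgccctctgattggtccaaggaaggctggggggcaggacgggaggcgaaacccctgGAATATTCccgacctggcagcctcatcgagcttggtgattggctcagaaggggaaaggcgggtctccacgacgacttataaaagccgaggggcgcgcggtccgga

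None of the other cytosolic HSP70 and HSP110 members passed. HSPA8 had a log2 fold change of -0.06 (95% confidence interval -0.12 to 0.01), and the value turned to 0.07 under quantile normalization. It was called lower with limma-voom (-0.05, adjusted p-value 0.0014) and without untreated library 2 (-0.08, limma adjusted p-value 0.034). HSPA4 and HSPH1, the HSP110-type nucleotide exchange factors, had means of 95.5 and 44.3 FPKM in untreated cells and log2 fold changes of 0.00, with intervals of -0.05 to 0.04 and -0.06 to 0.06. HSPA4L, a further HSP110 gene, had a log2 fold change of 0.02, and HSPA14, which works at the ribosome, one of -0.06. Neither passed, although HSPA14 was called under quantile normalization (-0.08, limma adjusted p-value 0.045). HSPA2, an HSP70 most abundant in testis, had 1.03 FPKM on average and a log2 fold change of 0.25 with a limma adjusted p-value of 0.078, which was 0.026 without the intensity trend.

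The listed targets of HSF1 moved unequally. Of the 10 members listed as HSF1 targets, 9 were compared, 5 rose and 2 fell, with a median log2 fold change of 0.07. The 5 were HSPA1A and HSPA1B, described above, and DNAJA1, DNAJB1 and HSP90AA1. Among all genes with at least 1 FPKM, 21.1% were higher and 28.3% lower. DNAJA1 (chr9:33025211-33039907, plus strand), the main cytosolic J-domain partner of HSP70, had 151, 148 and 154 FPKM in untreated and 226, 218 and 225 FPKM in treated libraries. Its log2 fold change was 0.56 with a standard error of 0.02 and a limma adjusted p-value of 1.6e-05. It was the highest J-domain gene in both groups. On the same per-length scale, its rise from a mean of 151 to 223 FPKM exceeded the joint difference of 24.5 FPKM of HSPA1A and HSPA1B. That difference may be too low if reads that fit both copies were left out.

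DNAJB1, the classic inducible HSP40, had 17.51, 17.50 and 16.99 FPKM in untreated and 18.0, 18.7 and 18.5 FPKM in treated libraries. Although the groups did not overlap, the log2 fold change was only 0.09 with a limma adjusted p-value of 0.044. HSP90AA1, the inducible cytosolic HSP90, had 527, 522 and 533 FPKM in untreated and 558, 552 and 549 FPKM in treated libraries, a log2 fold change of 0.07 with a limma adjusted p-value of 0.024. The HSP90AA1 value was -0.011 after quantile normalization, so its direction depended on the scaling. The call of DNAJB1 ended under 11 of 17 alternative settings, with adjusted p-values up to 0.14, among them the omission of any 1 untreated library or of IFNβ library 2 or 3. The call of HSP90AA1 ended under 9 of them, with adjusted p-values up to 0.72, among them the omission of untreated library 2 or of any 1 IFNβ library.

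HSP90AB1, the constitutive cytosolic HSP90, was the highest member of all, with 1040, 1027 and 1045 FPKM in untreated and 1047, 1044 and 1024 FPKM in treated libraries. Its log2 fold change was 0.00, with an interval of -0.05 to 0.05. HSP90B1 (GRP94), the HSP90 of the ER, had means of 80.2 and 81.5 FPKM and a log2 fold change of 0.02 with an interval of -0.03 to 0.08. The copies HSP90AB3P, HSP90AA2P and HSPD1P1, processed pseudogenes of these families, had means of 6.21, 5.72 and 4.79 FPKM, beside 1038, 540 and 139 FPKM of HSP90AB1, HSP90AA1 and HSPD1.

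Of the 3 heat shock factors, which are not members, 1 passed, beside 32.7% of all genes tested. HSF1, the main factor of the heat shock response, had means of 17.4 and 19.0 FPKM, a log2 fold change of 0.12 and a limma adjusted p-value of 0.14. It was called higher with limma-voom on the recovered fragments (adjusted p-value 0.021) and without IFNβ library 3 (0.17, limma adjusted p-value 0.023). HSF2, a related factor, had means of 9.98 and 9.25 FPKM, a log2 fold change of -0.10 and a limma adjusted p-value of 0.53, and was called lower without untreated library 1 (-0.22, limma adjusted p-value 0.026). HSF4 rose from 0.683 to 1.08 FPKM, a log2 fold change of 0.59 with a limma adjusted p-value of 0.011, and the value was 0.31 with a pseudocount of 1. These are transcript levels, and the activity of the factors was not measured.

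**Figure D2:**
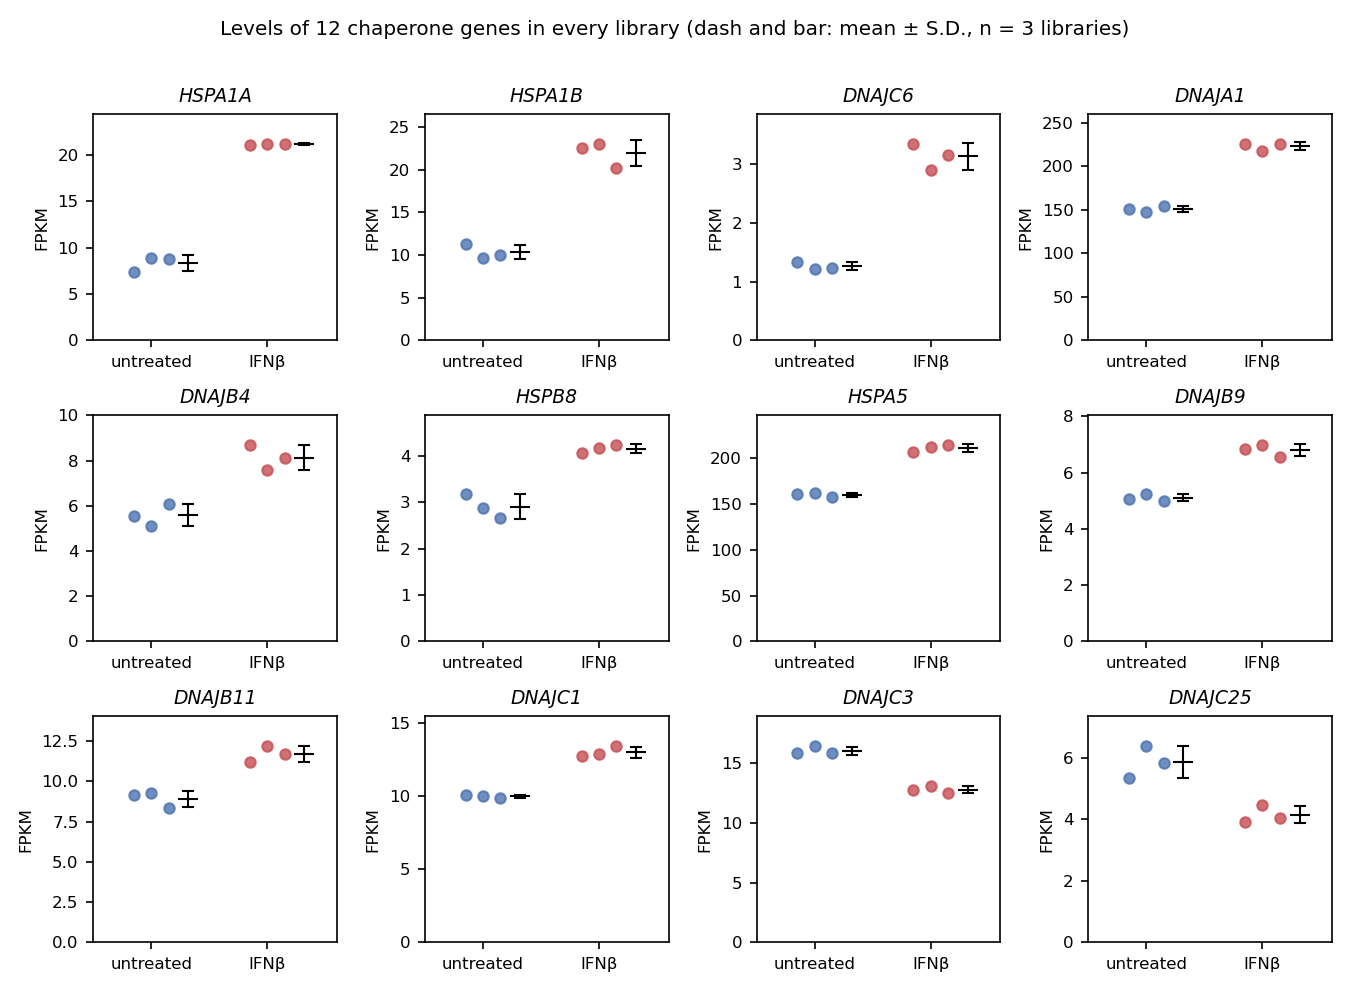
FPKM of 12 chaperone genes in each library (points; blue untreated, red IFNβ; 3 libraries per group), with the mean and S.D. of each group (dash and bar). In each panel the groups do not overlap: HSPA1A lies between 7.34 and 8.86 in untreated and between 21.1 and 21.2 FPKM in treated libraries, and DNAJC3 and DNAJC25 are the panels in which the treated libraries are lower.

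The third member past the fold threshold was a J-domain protein of vesicle traffic. DNAJC6 (auxilin, ENSG00000116675, chr1:65248219-65415869, plus strand) brings HSC70 to clathrin coats and so helps to remove them. It had 1.33, 1.21 and 1.24 FPKM in untreated and 3.35, 2.89 and 3.16 FPKM in treated libraries, with a log2 fold change of 1.25, a standard error of 0.08 and a limma adjusted p-value of 7.5e-05. At this low level the size depends on the pseudocount, and the log2 fold change was 0.87 with a pseudocount of 1.

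Among the small heat shock proteins, which hold unfolded clients without using ATP, only HSPB8 was compared. HSPB8 acts with HSC70 in the selective autophagy of damaged proteins. It had 3.19, 2.88 and 2.66 FPKM in untreated and 4.06, 4.18 and 4.24 FPKM in treated libraries, a log2 fold change of 0.51 with a limma adjusted p-value of 0.0023. HSPB1 (HSP27), a small heat shock protein that many cancer cells carry in quantity, had 0, 4 and 10 fragments in untreated and 2, 3 and 7 fragments in treated libraries, at most 0.187 FPKM, and was not tested. Whether so low a value reflects the cells or the assignment of reads by the authors cannot be told apart from these values.

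The listed ER chaperones split into rising and falling members. Of the 8 on the list, 4 rose, 3 fell and 1 did not pass, with a median log2 fold change of 0.20. The list is partial. It leaves out DNAJB12 and DNAJB14 of the ER membrane, which had log2 fold changes of 0.03 and -0.06 and did not pass. The shares among all genes with at least 1 FPKM were 21.1% higher and 28.3% lower. HSPA5 (BiP, ENSG00000044574, chr9:125234853-125241330, minus strand), the ER's HSP70 and sensor of unfolded proteins, had 161, 162 and 157 FPKM in untreated and 207, 212 and 215 FPKM in treated libraries. Its log2 fold change was 0.40 with a standard error of 0.02 and a limma adjusted p-value of 4.3e-05. All treated libraries were above all untreated ones.

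The J-domain partners of HSPA5 in the ER lumen and membrane moved both ways. DNAJB9 (ERdj4), which helps to clear misfolded proteins, had 5.07, 5.24 and 4.99 FPKM in untreated and 6.83, 6.99 and 6.56 FPKM in treated libraries, with a log2 fold change of 0.41. DNAJB11 (ERdj3), which binds unfolded chains with HSPA5, had 9.13, 9.28 and 8.37 FPKM in untreated and 11.2, 12.2 and 11.7 FPKM in treated libraries, with a log2 fold change of 0.39. DNAJC1 (ERdj1), which sits at the ribosomes on the ER membrane, had 10.1, 10.0 and 9.88 FPKM in untreated and 12.7, 12.9 and 13.4 FPKM in treated libraries, with a log2 fold change of 0.38. The limma adjusted p-values of these 3 genes were 4.4e-04, 0.0018 and 1.9e-04.

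DNAJC3 (P58IPK, chr13:95677139-95794989, plus strand), known both as an ER co-chaperone and as an inhibitor of the eIF2α kinases PKR and PERK, went the other way. It had 15.8, 16.4 and 15.8 FPKM in untreated and 12.8, 13.1 and 12.5 FPKM in treated libraries. It fell by 0.33 on the log2 scale, with a limma adjusted p-value of 2.9e-04. HSPA13, an HSP70-like protein of the ER, fell by 0.18, from a mean of 27.8 to 24.5 FPKM. DNAJC10 (ERdj5), a disulfide reductase, fell by 0.12, from 8.06 to 7.39 FPKM. The call of HSPA13 ended under 2 of 17 alternative settings, neither of which left out a library. That of DNAJC10 ended under 5, with adjusted p-values up to 0.064, among them the omission of untreated library 1 or 2 or of IFNβ library 3.

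Of the 70 members with a RefSeq promoter, HSPA5 and HSP90B1 alone held the ER stress element, CCAAT and CCACG with 9 bases of any kind between them (read on both strands), which 0.0916% of the 27305 genes with a RefSeq promoter hold. HSPA5 rose and HSP90B1 did not pass. The 250 bases before the start of HSPA5 (GRCh38.p14, minus strand, written 5′ to 3′) carry the element near their 3′ end, in capitals.
HSPA5 (chr9:125241344-125241593): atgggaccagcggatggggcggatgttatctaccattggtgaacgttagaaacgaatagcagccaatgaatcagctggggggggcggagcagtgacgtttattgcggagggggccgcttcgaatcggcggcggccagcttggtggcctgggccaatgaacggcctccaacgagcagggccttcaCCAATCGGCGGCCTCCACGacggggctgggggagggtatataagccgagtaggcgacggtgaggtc

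Of 15 further genes of the unfolded protein response that are not members, 6 rose, 2 fell and 7 did not pass. Their median log2 fold change was 0.03. The shares among all genes with at least 1 FPKM were 21.1% higher and 28.3% lower. The largest change was in DDIT3 (CHOP), a transcription factor of prolonged ER stress, which rose from a mean of 4.12 to 6.73 FPKM, a log2 fold change of 0.69 with a limma adjusted p-value of 0.0020. CRELD2, CALR, PDIA3, PDIA6 and PDIA4 rose, with log2 fold changes between 0.08 and 0.39. The 2 that fell were SEL1L (-0.38, limma adjusted p-value 2.8e-04) and XBP1 (-0.16, limma adjusted p-value 0.016). HERPUD1, SDF2L1, MANF, EDEM1, ERN1, CANX and ATF6 did not pass. Whether the ER was under stress was not tested.

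Most TRiC/CCT genes fell. The complex is a double ring of 8 different subunits that folds actin, tubulin and other cytosolic proteins, and 7 of its genes are members. Of these, 6 fell and 1 did not pass, beside 28.3% lower among all genes with at least 1 FPKM. Their median log2 fold change was -0.15, and it lay between -0.15 and -0.13 under every scaling tried. The summed FPKM of the 7 genes was 975, 954 and 959 in untreated and 862, 863 and 863 in treated libraries, a difference of -100.0 FPKM with p = 0.1 in the exact two-sided permutation test, the smallest value it can give.

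CCT7 (chr2:73233420-73253021, plus strand) changed most, with 159, 158 and 157 FPKM in untreated and 131, 133 and 134 FPKM in treated libraries. It fell by 0.25 on the log2 scale, with a standard error of 0.02 and a limma adjusted p-value of 1.1e-04. CCT5 fell by 0.19, CCT2 by 0.16, CCT3 by 0.15, CCT4 by 0.14 and TCP1 (CCT1) by 0.13. CCT8 had 120, 122 and 125 FPKM in untreated and 121, 118 and 118 FPKM in treated libraries, with a log2 fold change of -0.04 and an interval of -0.10 to 0.01. CCT6A, the eighth subunit and not a member, had means of 151 and 128 FPKM and fell by 0.24. Whether the subunits differed from each other was not tested.

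In untreated cells CCT5 had the highest level, 174 FPKM, followed by CCT7 and CCT4 at 158 FPKM each, CCT3 at 125, CCT8 at 122, CCT2 at 116 and TCP1 at 110. The ranges of CCT7 and CCT4 and those of CCT3 and CCT8 overlapped. Quantile normalization ended the calls of CCT4 (-0.07, limma adjusted p-value 0.18) and CCT5 (-0.13, limma adjusted p-value 0.058), whereas the calls of CCT7, CCT3, CCT2 and TCP1 stood under all 17 alternative settings. Prefoldin, the complex that hands actin and tubulin chains to TRiC/CCT, is not a member. Of its 6 genes, 3 fell, none rose and 3 did not pass, with a median log2 fold change of -0.19. Among all genes with at least 1 FPKM, 28.3% were lower and 21.1% higher.

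**Figure D3:**
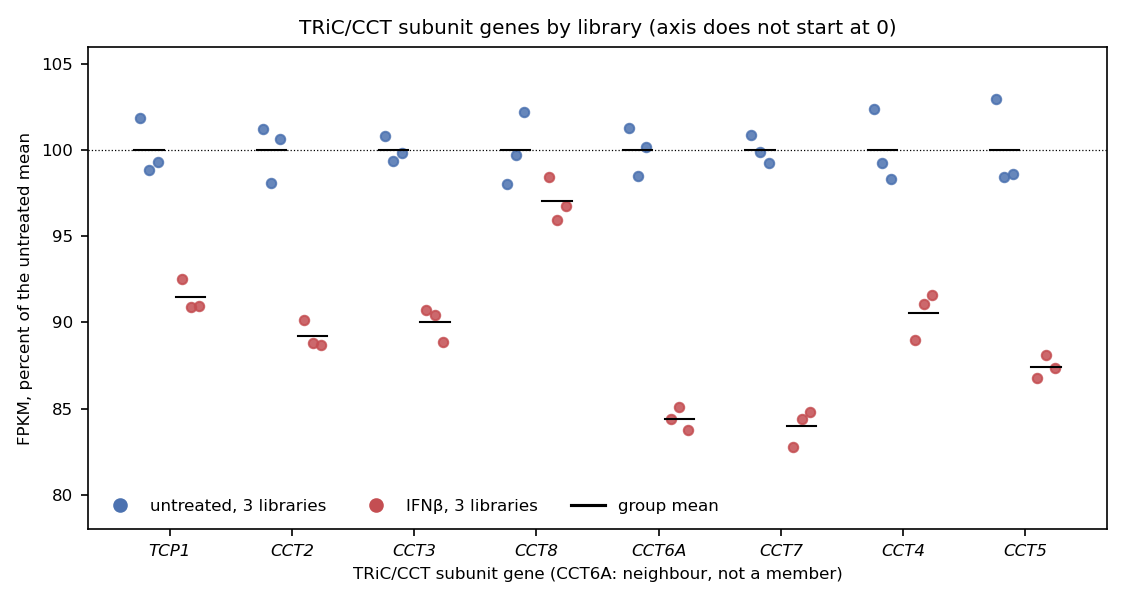
FPKM of each TRiC/CCT subunit gene as a percent of its own untreated mean (points are libraries, blue untreated and red IFNβ, 3 each; black dashes are group means; the axis does not start at 0). The treated libraries of every subunit but CCT8 lie below all its untreated libraries.

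The mitochondrial chaperones that passed were lower. Of 8 on the list, 4 fell, none rose and 4 did not pass, with a median log2 fold change of -0.08. Among all genes with at least 1 FPKM, 28.3% were lower and 21.1% higher. HSPA9 (mortalin), the mitochondrial HSP70 that pulls proteins through the inner membrane, had 69.1, 67.2 and 67.9 FPKM in untreated and 59.9, 58.9 and 59.5 FPKM in treated libraries. It fell by 0.20, with a limma adjusted p-value of 3.9e-04 and no overlap between the groups.

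HSPD1 (HSP60) forms the mitochondrial folding chamber and HSPE1 (HSP10) is its lid. HSPD1 had 146, 142 and 149 FPKM in untreated and 135, 132 and 130 FPKM in treated libraries and fell by 0.14, with a limma adjusted p-value of 0.0074. HSPE1 had 31.35, 30.02 and 27.48 FPKM in untreated and 24.26, 24.99 and 27.00 FPKM in treated libraries and fell by 0.22, with a limma adjusted p-value of 0.033. The FPKM of HSPE1 was 20.3% of that of HSPD1 in untreated and 19.2% in treated cells (p = 0.4, exact two-sided permutation test). The size of this ratio depends on the gene lengths used for the scaling. The genes lie head to head on chromosome 2 and their exons overlap on opposite strands, and HSPE1 also shares exons with the readthrough gene HSPE1-MOB4. Whether the counting used strand is not given in the sources used here, so their reads may be partly mixed. The call of HSPE1 ended under 9 of 17 alternative settings, with adjusted p-values up to 0.10, among them the omission of untreated library 1 or 2 or of IFNβ library 1 or 2. The call of HSPD1 ended under 2, one of them quantile normalization.

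DNAJA3 (TID1), the J-domain partner of HSPA9, fell by 0.09, with a limma adjusted p-value of 0.023 and a loss of the call under 7 of 17 settings, with adjusted p-values up to 0.11, among them the omission of untreated library 1 or 3 or of IFNβ library 2 or 3. DNAJC19 and DNAJC15 of the import motor, DNAJC11 and DNAJC30 had log2 fold changes of -0.04, 0.00, 0.05 and -0.06 and did not pass.

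The J-domain proteins are the most numerous members, and their 3 classes had different counts. Of 3 DNAJA genes compared, 2 rose and 1 fell. Of 9 DNAJB genes, 6 rose, none fell and 3 did not pass, with a median log2 fold change of 0.09. Of 23 DNAJC genes, 2 rose, 9 fell and 12 did not pass, with a median of -0.07. Among all genes with at least 1 FPKM, 21.1% were higher and 28.3% lower. The calls of DNAJB1, DNAJB2 and DNAJB6 ended under 11, 10 and 8 of 17 alternative settings. Those of DNAJC7, DNAJC10 and DNAJC24 ended under 6, 5 and 8, and those of DNAJA2 and DNAJA3 under 4 and 7. The summed FPKM was 193 and 267 for DNAJA, 72.1 and 81.5 for DNAJB and 217 and 205 for DNAJC in untreated and treated cells, each with p = 0.1 in the exact two-sided permutation test, the smallest value it can give. No test between the classes was made.

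Among the cytosolic J-domain genes, DNAJB4, an HSP70 partner related to DNAJB1, had 5.54, 5.12 and 6.08 FPKM in untreated and 8.70, 7.57 and 8.12 FPKM in treated libraries, a log2 fold change of 0.54 with a limma adjusted p-value of 0.0026. Its exons overlap those of GIPC2 on the same strand. DNAJB2, DNAJA2 and DNAJB6, further cytosolic partners of HSP70, had log2 fold changes of 0.30, 0.16 and 0.08 with limma adjusted p-values of 0.039, 0.014 and 0.034. The calls of DNAJB2, DNAJA2 and DNAJB6 ended under 10, 4 and 8 of 17 alternative settings, with adjusted p-values up to 0.12, 0.056 and 0.12, and the omission of IFNβ library 1 or of IFNβ library 3 was among these settings for each. The call of DNAJB2 also ended without untreated library 1 or 2 or IFNβ library 2, and that of DNAJB6 without untreated library 1 or 3. The processed pseudogene DNAJB6P1 had a mean of 7.13 FPKM and rose by 0.34, with a limma adjusted p-value of 0.047, beside 14.2 FPKM of DNAJB6.

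The largest fall of any member was that of DNAJC25, a membrane J-domain protein, with 5.34, 6.38 and 5.81 FPKM in untreated and 3.92, 4.46 and 4.05 FPKM in treated libraries. It fell by 0.49 on the log2 scale with a limma adjusted p-value of 0.0042, and its exons are shared with the readthrough gene DNAJC25-GNG10. DNAJC13 (RME-8), which acts on endosomes, fell by 0.21, from 26.1 to 22.5 FPKM. DNAJC5 (cysteine string protein), which acts on secretory vesicles, fell by 0.20, from 24.8 to 21.5 FPKM. DNAJC21, needed for the maturation of the large ribosomal subunit, fell by 0.21, from 4.98 to 4.30 FPKM. In DNAJC25, DNAJC13, DNAJC5 and DNAJC21 all treated libraries were below all untreated libraries, and the call stood under all 17 alternative settings.

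DNAJC14, DNAJC24 and DNAJC7 fell by 0.15, 0.18 and 0.11. DNAJC24 serves the synthesis of diphthamide and DNAJC7 passes clients between HSP70 and HSP90. The call of DNAJC24 ended under 8 of 17 settings, among them the omission of any 1 library (adjusted p-values up to 0.089), and that of DNAJC7 under 6, among them the omission of untreated library 1 or of IFNβ library 2 or 3 (up to 0.062). The 8 remaining DNAJC genes compared were DNAJC2, DNAJC4, DNAJC8, DNAJC9, DNAJC16, DNAJC17, DNAJC18 and DNAJC22. None passed, and their log2 fold changes lay between -0.09 for DNAJC9 and 0.30 for DNAJC4 (limma adjusted p-values 0.092 and 0.091). DNAJC4 was called higher with limma-voom (0.34, adjusted p-value 0.032). DNAJB12 and DNAJB14 of the ER membrane, at 0.03 and -0.06, did not pass either.

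**Figure D4:**
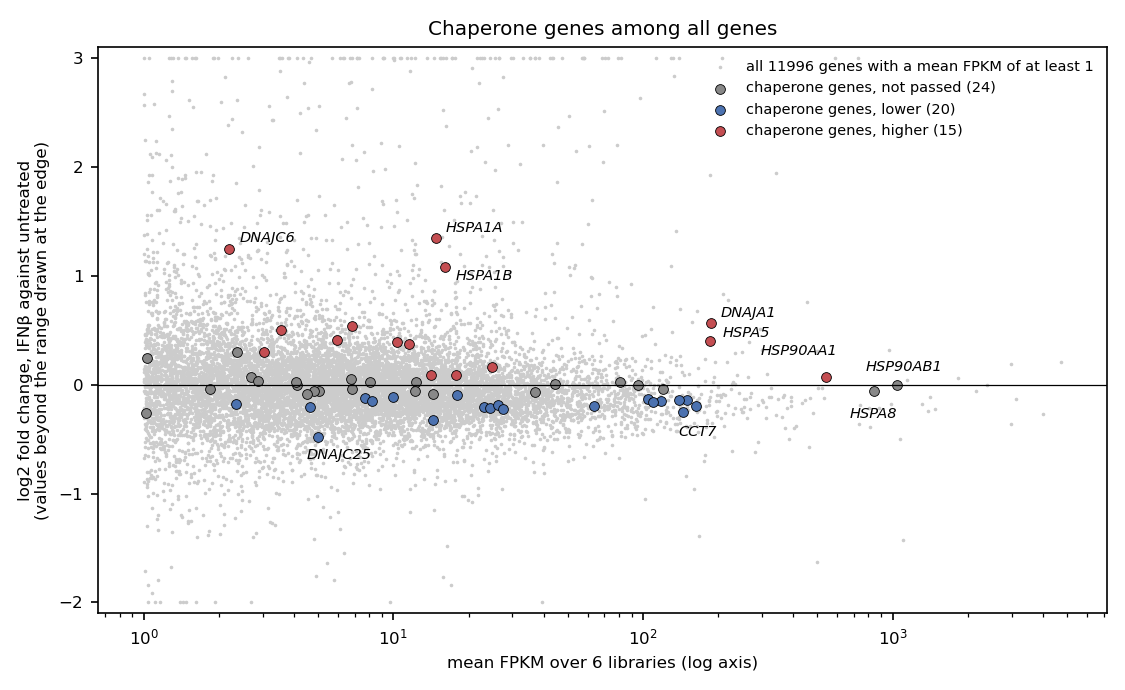
Log2 fold change (IFNβ against untreated, on the log2(FPKM + 0.1) scale, with values beyond the plotted range drawn at its edge) against mean FPKM over the 6 libraries (log axis). Grey points are the 11996 genes with a mean of at least 1 FPKM, and the larger points are the chaperone genes (red 15 higher, blue 20 lower, grey 24 not passed). The most abundant chaperone genes, HSP90AB1, HSPA8 and HSP90AA1, lie close to 0.

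The 17 members with a mean under 1 FPKM give no count here. HSPB2, HSPB3, HSPB7 and DNAJB8 were listed at 0 in all 6 libraries, which allows up to 0.167 FPKM (3 fragments) in a library for the shortest of them, HSPB3. HSPB1, DNAJA4 and DNAJB13 were under 0.1 FPKM and were not tested. The 10 others were tested and none passed. HSPB9 had 0, 21 and 7 fragments in untreated and 21, 28 and 21 in treated libraries, with a limma adjusted p-value of 0.13, and HSPA12B had 27, 30 and 32 fragments in untreated and 23, 14 and 9 in treated libraries, with a limma adjusted p-value of 0.081. HSPA6, the HSP70 gene that is nearly silent without heat, had 29, 35 and 35 fragments in untreated and 40, 33 and 22 in treated libraries, a log2 fold change of -0.07. HSPA12A, HSPA1L, HSPB6, DNAJB7, DNAJC12, DNAJC27 and DNAJC28 had adjusted p-values of at least 0.094. The members just inside and just outside the limit of 1 FPKM were DNAJB5 at 1.02 and DNAJC27 at 0.759 FPKM, with log2 fold changes of -0.26 and 0.16. Without untreated library 1, DNAJB5 was called lower (-0.45, limma adjusted p-value 0.022), whereas its value was -0.13 without untreated library 3.

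The promoters were read for elements with which the groups can be described, without a test. RefSeq gave a window of 300 bases (250 before the start and 50 after it) for 70 of the 76 members and for 55 of the 59 compared. A heat shock element step, TTCNNGAA or GAANNTTC (each its own reverse complement), was in the window of 9 of 14 members that rose, 5 of 19 that fell and 4 of 22 that did not pass, beside 13.7% of the 8693 genes with a window and at least 1 FPKM and 16.2% of all 27305 genes. Of the 9, DNAJC6 had its match in the 50 bases after the start. Also among the 9 were HSPA1A and HSPA1B, whose windows are nearly alike. The calls of DNAJB1, DNAJB6 and HSP90AA1, which belong to the 9, ended under 11, 8 and 9 of 17 alternative settings. Among the 5 that fell, CCT4 had its match after the start and HSPA9 across it. The calls of HSPD1 and CCT4, which belong to the 5, ended under 2 and 1 of these settings. The 3-unit form, in which a TTCNNGAA runs on into a GAANNTTC or the reverse so that they share their middle unit, was in 3 of the 14, 1 of the 19 and 2 of the 22, beside 0.472% and 0.608%.

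The core of the interferon-stimulated response element, GAAA and a second GAAA with 2 bases between them, was in none of the 70 member windows on either strand, beside 4.38% of all genes. Of the 218 genes with a window that were past the fold threshold in the higher direction with at least 1 FPKM, 32.1% held it. The STAT site TTCNNNGAA was in 6 of the 70 members (8.57%), beside 9.38% of all genes, and in none of the 14 that rose. A match is a string of letters, not a bound site, and its absence from these 300 bases says nothing of other regions.

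The windows that carry a heat shock element before the start are shown for members that rose, for 3 that fell and for abundant members that did not pass, at 1 site each, with the matched letters in capitals and the RefSeq position on GRCh38.p14 for each.
DNAJA1 (chr9:33025063-33025094, plus strand, rose): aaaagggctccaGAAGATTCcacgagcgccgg
DNAJB4 (chr1:78004829-78004860, plus strand, rose): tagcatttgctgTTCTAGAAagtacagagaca
HSPB8 (chr12:119178831-119178862, plus strand, rose): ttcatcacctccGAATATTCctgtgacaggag
DNAJB1 (chr19:14518425-14518456, minus strand, rose): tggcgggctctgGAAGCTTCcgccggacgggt
DNAJB6 (chr7:157336861-157336897, plus strand, rose): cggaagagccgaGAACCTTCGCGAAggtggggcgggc
HSP90AA1 (chr14:102087108-102087144, minus strand, rose): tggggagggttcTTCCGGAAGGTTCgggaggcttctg
HSPD1 (chr2:197500061-197500090, minus strand, fell): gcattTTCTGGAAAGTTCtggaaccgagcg
TCP1 (chr6:159789814-159789845, minus strand, fell): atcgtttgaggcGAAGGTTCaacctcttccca
CCT2 (chr12:69585788-69585819, plus strand, fell): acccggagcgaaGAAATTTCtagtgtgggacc
HSP90AB1 (chr6:44247819-44247855, plus strand, did not pass): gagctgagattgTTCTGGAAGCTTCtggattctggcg
HSPA8 (chr11:123062167-123062203, minus strand, did not pass): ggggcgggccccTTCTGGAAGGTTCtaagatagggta
HSPB8 carries the same 8 matched letters as HSPA1A and HSPA1B. The exact 3-unit element was held by DNAJB6 and HSP90AA1, whose rises were under 0.1 on the log2 scale, and by HSPD1, which fell. It was also held by HSP90AB1 and HSPA8, which did not pass, and not by HSPA1A or HSPA1B. Forms with a mismatch were not searched for. DNAJA1 also holds the 3-unit element GAACTTTCCAGAA just after its start.

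Of 26 co-chaperones of HSP70 and HSP90 that are not members, 5 rose, 7 fell and 14 did not pass, with a median log2 fold change of -0.05, beside 21.1% higher and 28.3% lower among the genes with at least 1 FPKM. FKBP5, an HSP90 co-chaperone of steroid receptors, changed most, from 5.87 to 8.60 FPKM, a log2 fold change of 0.54 with a limma adjusted p-value of 3.3e-05.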

How the data were processed

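RNA of HT1080 cells was sequenced in 3 untreated and 3 IFNβ-treated libraries, as paired-end reads according to the labels. The authors deposited 1 FPKM value per Ensembl gene and library. The submitters' processing notes name fastp, HISAT2, StringTie and the build GRCh38. Versions, annotation and strandedness are not given in the sources used here. Reads of near-identical copies and of overlapping exons may be split or shared between genes or left out. Exon overlaps were read from GENCODE release 29. Such overlaps are not limited to the members for which the results give them. On the same strand HSPA1B, DNAJB11, DNAJC6 and DNAJC14, among others, overlap further genes. On the opposite strand DNAJB9, DNAJB11 and DNAJC14 do so, among others.

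Whole fragments were recovered from the steps of the FPKM values for 100% of the 35303 genes above 0 (tolerance 0.02 fragments). They gave the depth of each library and the fragments behind low values. Floors of 3 fragments cover counting error only, whereas the 95% confidence intervals of fold changes come from the spread between libraries in the limma fit.

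Gene IDs were paired with symbols, which gave 78 matches to the members' rule, of which 2 were not protein coding. The groups were compared gene by gene in limma 3.58.1 under R 4.3.3 (lmFit, then eBayes with its trend option). The fit used log2 of FPKM plus 0.1, had no covariate and took in each gene whose mean FPKM reached 0.1. Fold changes are on that scale and understate the change of low genes. A gene was called when its p-value, adjusted over all genes tested by Benjamini-Hochberg, was under 0.05. DESeq2 was used by the authors but needs counts, so it was not run. The procedure was tested on simulated data. Sums were compared with exact two-sided permutation tests. Python 3.11.15 with pandas 2.3.3 and numpy 2.4.6 was used for the other steps, and promoters came from RefSeq (GRCh38.p14).

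The members and lists were chosen with earlier results of these data known. The genes named are the main chaperones of each family, the members past the fold threshold, the 10 largest rises and falls among calls, the 10 highest members, those beside the FPKM limit, the heat shock factors and the listed non-members called with a log2 fold change of 0.5 or more in either direction. The remaining members are named to account for each of them. Pseudogenes and the other genes of the unfolded protein response were named after their values were seen. Alternatives were other pseudocounts, filters, scalings, priors and thresholds, a block for the replicate number, the omission of each library, and limma-voom on the recovered fragments. The sum of HSPA1A and HSPA1B was an alternative chosen after seeing the data. A further list of markers is not reported here.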

Additional observations from a re-analysis of the deposited data

How the results depend on the processing

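Between 10 and 16 members were called higher and between 14 and 21 lower under the alternatives, and 3 members passed the fold threshold under each of them but the pseudocount of 1, which left 2. Of the 35 called members, 21 kept the call under every alternative. HSP90AA1 turned to -0.011 under quantile normalization. Of all genes, 875 passed the fold threshold, beside 304 with a pseudocount of 1 and 425 with only genes of at least 1 FPKM in the fit. In all, 6778 genes were called, beside 4341 at an adjusted p-value under 0.01. Apart from the smaller number of genes fitted or the stricter threshold, the cause was not tested. Leaving out 1 library gave 5579 to 6044 calls over all genes, 809 to 867 past the fold threshold, 10 to 13 members higher, 16 to 18 lower and 3 past the fold threshold, and a difference in the chaperone share of 0.00406 to 0.0462 percentage points, beside 0.0225 with all libraries.

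The replicate numbers showed no evident pairing of the libraries. Same-numbered libraries had correlations of 0.05, -0.02 and 0.12 between their deviations from the group means. Differently numbered ones had correlations between -0.15 and 0.10. Deviations within a group cancel out for each gene, so these correlations depend on each other. A weak pairing could be hidden by the noise of single libraries, so the check cannot exclude pairing. With the replicate number as a block, 6069 genes were called, 829 of them past the fold threshold, with 12 members higher, 19 lower and 3 past the fold threshold. The block added calls for DNAJC4 (0.30, limma adjusted p-value 0.034) and DNAJC8 (-0.07, limma adjusted p-value 0.046). Limma-voom on the recovered fragments called 7938 genes, with 16 members higher and 21 lower. The lowest depth was 22848104 fragments, and the 7 members under 0.1 FPKM were beyond the reach of the test.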
